A study of Homo sapiens with 6 samples.

Results

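The genes described here encode the proteins that carry glucose through glycolysis, pass pyruvate to lactate or to the mitochondrion, and feed the pentose phosphate pathway. They are 35 genes, listed by symbol for their place in these pathways, out of 62700 annotated gene IDs. The list uses no expression value, but it was drawn up with earlier results of these data known. All 35 were found and all passed the filter on low counts, as did 15685 genes in all. RNA was sequenced from OVCAR8, an established human ovarian carcinoma cell line, labelled wild type. The Leptin group had 3 libraries, from cells given 100 ng/ml of leptin, a hormone made by fat cells, for 24 h. The Control group had 3 libraries, from cells given PBS. The labels name overnight serum starvation for both groups, and the study asked which transcripts leptin alters. No label says that the libraries of a group were separate cultures, so the p-values here cover the spread of these libraries, which may be technical.

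Glucose enters cells through SLC2A transporters, is trapped as a phosphate ester by hexokinases, and is committed to glycolysis by phosphofructokinase. The lower steps, from aldolase to pyruvate kinase, yield ATP and pyruvate. Lactate dehydrogenase turns pyruvate into lactate, which leaves the cell with a proton through SLC16A carriers, while pyruvate dehydrogenase sends it to the citric acid cycle unless pyruvate dehydrogenase kinases switch the complex off. The pentose phosphate pathway branches off at glucose phosphate and supplies NADPH and ribose. Many tumour cells make lactate even with oxygen present.

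Total counts lay between 15609425 and 18577775 in a library. Leptin replicate 1 stood between the groups: on the first principal component of log2 CPM (counts normalised for library size), with 49.6% of the variance, it had -2.15, against 46.3 and 39.6 for Leptin replicates 2 and 3 and -31 to -23.6 for the Control libraries. Results are therefore given with and without it. As it was singled out for lying nearer the Controls than the other Leptin libraries, a fit without it favours larger differences and smaller p-values by its construction, and those p-values describe the remaining libraries only. Log2 fold changes, Leptin over Control throughout, also followed the GC content of the transcript, with a Spearman rho of 0.39 across 15249 genes, which are not independent replicates and share libraries. Of 7 ovarian carcinoma markers, which summed to 3485 to 3893 CPM with leptin and 3070.4 to 3343 CPM in Control libraries, PAX8, KRT7, KRT8 and KRT18 had 281 CPM or more in every library, EPCAM and WT1 1.96 to 6.11 CPM, and MUC16 was below the filter. The summed level of 6 fibroblast markers was 357 to 520.2 CPM with leptin and 460.03 to 656 CPM in Control libraries, nearly all of it COL1A1, with PDGFRA and DCN at 1.37 CPM or less. PDGFRB, at 2.71 CPM or less, lay above every Control in all Leptin libraries (log2 fold change 1.19 ± 0.38; adjusted p from edgeR = 0.0684). DCN (log2 fold change -2.11 ± 0.66; adjusted p from edgeR = 0.0658) and LUM (adjusted p from edgeR = 0.215) lay below every Control. For COL1A1, COL1A2 and PDGFRA the groups overlapped. The 6 immune markers summed to 2.61 to 4.84 CPM with leptin and 1.69 to 2.48 CPM in Control libraries, with PTPRC and CD3E at 0 counts. Nearly all of the immune sum was CSF1R, at 4.61, 3.81 and 2.49 CPM with leptin and 1.58, 2.42 and 2.34 CPM in Control libraries (log2 fold change 0.79 ± 0.31; adjusted p from edgeR = 0.13). The 4 endothelial markers summed to 1.74 to 2.998 CPM with leptin and 3.16 to 3.98 CPM in Control libraries, and the 5 adipocyte markers to 29.2 to 56.4 CPM with leptin and 19.9 to 26.8 CPM in Control libraries, nearly all of it CFD, with LEP at 0 counts. CFD passed the test over all libraries (log2 fold change 0.89 ± 0.23, adjusted p from edgeR = 0.0388), and no other marker of these lists did. CFD also passed DESeq2 (adjusted p = 0.00272) but not limma-voom (adjusted p = 0.0608), and passed edgeR in 1 of 6 leave-outs of 1 library. Without Leptin replicate 1, CFD and KRT7 passed edgeR above the Controls (log2 fold change 1.13 and 1.03, adjusted p = 1.3e-05 and 1.15e-05). COL1A1, COL1A2, DCN and LUM passed below them (log2 fold change -0.58, -1.53, -3.41 and -1.62, edgeR adjusted p = 0.00352, 0.00123, 0.00323 and 0.0211). No other marker passed in that fit, where 30.2% of all tested genes did. KRT7 had 283, 744 and 615 CPM with leptin and 281, 355 and 359 CPM in Control libraries. With the GC trend removed, CFD did not pass (edgeR adjusted p = 0.161), while COL1A1 did, at -0.66 (edgeR adjusted p = 0.0491). The part of these markers in the results was not tested. In bulk RNA, fewer cells of a type and less RNA per cell cannot be told apart.

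Leptin was followed by few called changes among the 35 genes. SLC16A3, a lactate exporter, and PGLS, of the oxidative pentose phosphate branch, rose, while PDK3, a pyruvate dehydrogenase kinase, fell (adjusted p under 0.05, edgeR's quasi-likelihood test over all genes). These 3 are 8.57% of the members, near the 9.81% of all tested genes that passed, 5.71% higher and 4.09% lower. Of the members, 10 had an unadjusted p under 0.05, beside 27.6% of all tested genes. The median log2 fold change was -0.07 for the members and 0.01 for all tested genes, and the members ranged from -0.64 for LDHA to 0.63 for PGLS, with 12 positive and 23 negative. The groups did not overlap for 9 members, 5 with Leptin above and 4 with Leptin below, and for 32.2% of all tested genes, 16% above and 16.2% below. A p that misses the threshold does not show that a level was the same in both groups.

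These calls depended on the libraries used. Without Leptin replicate 1, 14 members passed edgeR, 5 higher and 9 lower, among them the same 3, where 30.2% of all tested genes passed (16.3% higher and 13.9% lower). The higher ones were PFKL, PFKFB2, SLC16A1, SLC16A3 and PGLS, and the lower ones PFKFB3, PFKFB4, ALDOA, ALDOC, PGK1, PGAM1, LDHA, PDK3 and PDHA1. Without Control replicate 1, 2 or 3, edgeR passed 0 members each time, with 4, 8 and 5 at an unadjusted p under 0.05, and 0.72%, 2.38% and 1.03% of all tested genes. Without Leptin replicate 2 or 3 it also passed 0 members, with 7 unadjusted each time, and 4.99% and 1.73% of all tested genes; no other tool was run on these subsets. With each library's GC trend removed, edgeR passed 0 members, 9 had an unadjusted p under 0.05, and 5.52% of all tested genes passed. With both the GC trend and Leptin replicate 1 removed, 14 members, 3 higher and 11 lower, and 25.6% of all tested genes passed. They were not the same 14, as PFKL did not pass there (edgeR adjusted p = 0.796) and PDK2 did, lower (edgeR adjusted p = 0.026). Removing the GC trend and Control replicate 1, 2 or 3 or Leptin replicate 2 or 3 left 0.3%, 0.555%, 0.363%, 2.68% and 0.485% of all tested genes. DESeq2 passed 6 members, adding PFKL above and PGAM1 and LDHA below, beside 15.1% of all genes, and limma-voom 2, SLC16A3 and PDK3, beside 8.39%. Without the filter 6 members and 7.42% of all genes passed and at an adjusted p under 0.01, 0 members and 1.75%.

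The Leptin libraries differed among themselves. In Leptin replicate 1 the median member stood 0.14 above the Control mean in log2 CPM, and 17 members lay above and 7 below every Control library, where 33.9% of all tested genes lay above and 34.8% below. In Leptin replicates 2 and 3 the median member stood at -0.21 and -0.22. In Leptin replicate 2, 11 members lay above and 24 below every Control library (38.9% and 38.2% of all tested genes), and in Leptin replicate 3, 9 lay above and 20 below (38.2% and 38.5%). Together the 35 genes took 2.35%, 1.82% and 1.78% of all counts in Leptin replicates 1, 2 and 3, against 2.17%, 2.16% and 2.24% in Control replicates 1, 2 and 3. Most of those counts came from ENO1, PKM, GAPDH, LDHA and TKT, which held 72.8% to 77.9% of them with leptin and 76.6% to 77.1% in Control libraries.

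**Figure D1:**
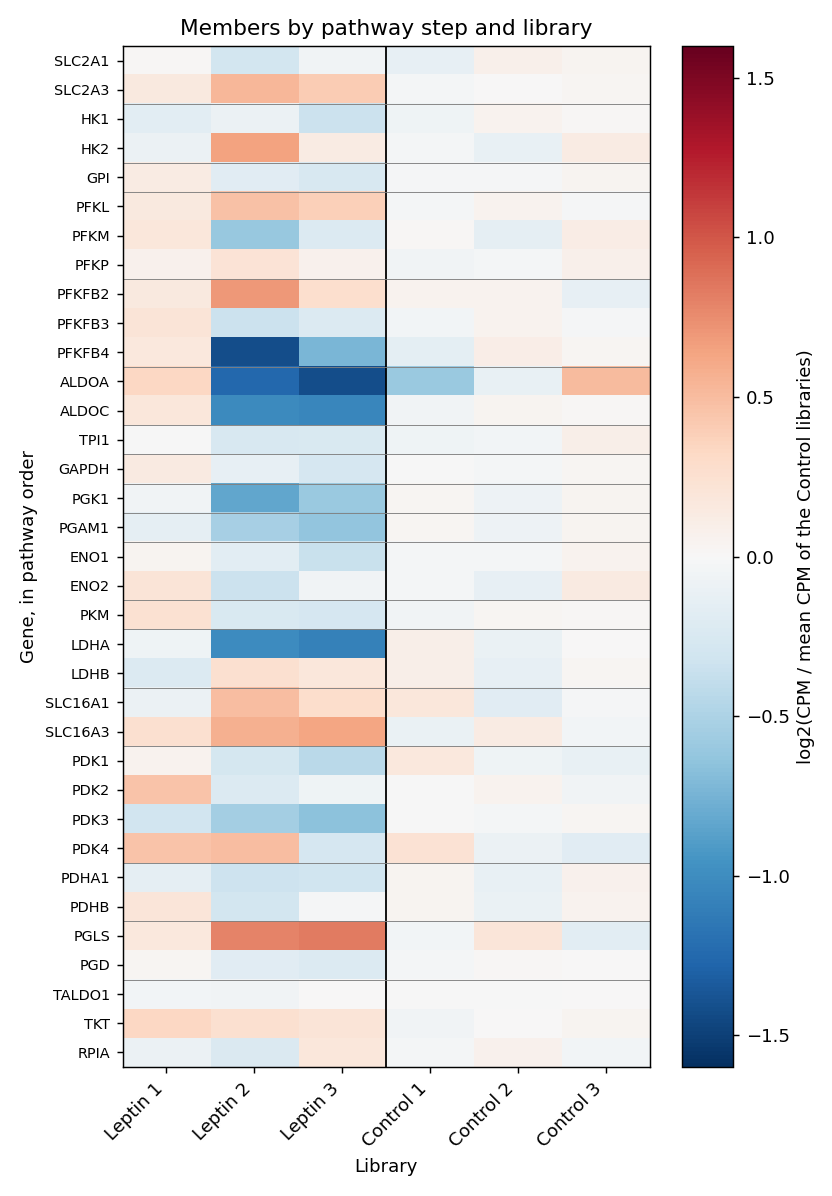
Log2 ratio of each member's CPM to its mean CPM in the Control libraries (colour; red above, blue below), with genes as rows in pathway order, grey lines between steps, and 3 Leptin and 3 Control libraries as columns. LDHA, PFKFB4, ALDOA, ALDOC and PGK1 are blue in Leptin replicates 2 and 3 and near or above 0 in Leptin replicate 1, while SLC16A3 and PGLS are red and PDK3 is blue in all 3 Leptin libraries.

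No gene of glucose uptake or phosphorylation among the members passed the test. Values below are in CPM, for replicates 1, 2 and 3 of each group. SLC2A1 (GLUT1), the main glucose carrier of many cultured cells, had 455, 368 and 434 CPM with leptin and 413, 476 and 462 CPM in Control libraries. The groups overlapped, with a log2 fold change of -0.10 ± 0.12 (SE). SLC2A3 (GLUT3), a carrier of high affinity, was low, at 1.44, 1.87 and 1.72 CPM with leptin and 1.27, 1.30 and 1.32 CPM in Control libraries. No Leptin library overlapped the Controls, but the log2 fold change of 0.37 ± 0.33 rested on few reads (edgeR adjusted p = 0.515). HK1, the hexokinase of most tissues, had 182, 191 and 160.04 CPM with leptin, below all Control values of 194, 212 and 206 CPM (log2 fold change -0.20 ± 0.11; adjusted p from edgeR = 0.272). HK2, a form induced in many tumours, had 12.9, 21.4 and 15.1 CPM with leptin and 13.5, 12.7 and 15.1 CPM in Control libraries. Per kb of annotated exon, the level of HK1 was 25.8 ± 2.33 CPM with leptin and 29.6 ± 1.32 CPM in Control libraries, and that of HK2 2.79 ± 0.750 CPM with leptin and 2.33 ± 0.206 CPM in Control libraries (mean ± SD, n = 3 each).

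At the upper steps, GPI, which turns glucose phosphate into fructose phosphate, had 409, 327 and 313 CPM with leptin and 368, 367 and 383 CPM in Control libraries. For GPI, Leptin replicate 1 lay above and the other Leptin libraries below all Controls. Among the phosphofructokinase subunits, the liver type PFKL had 291, 360.4 and 338 CPM with leptin, above all Control values of 255, 269.6 and 257 CPM. Its log2 fold change of 0.34 ± 0.12 did not pass edgeR (adjusted p = 0.0824) and passed DESeq2 (adjusted p = 0.0375); with the GC trend removed it was -0.04, the opposite sign, and the transcript has 64.1% GC. The platelet type PFKP, highest of the subunits per kb, had 323, 358 and 321 CPM with leptin and 296, 299.6 and 326 CPM in Control libraries. Its log2 fold change of 0.12 ± 0.11 was -0.02 with the GC trend removed. The muscle type PFKM was low, at 6.15 to 10.6 CPM with leptin and 8.45 to 10.1 CPM in Control libraries.

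PFKFB enzymes set the level of fructose 2,6-bisphosphate, which activates phosphofructokinase. PFKFB3, whose kinase activity dominates, was highest of them per kb, with 98.1, 66.8 and 73.1 CPM with leptin and 82.4, 88.02 and 83.9 CPM in Control libraries. PFKFB2 had 22.8, 32.9 and 24.6 CPM with leptin, above all Control values of 21.2, 21.3 and 18.7 CPM (log2 fold change 0.39 ± 0.15; adjusted p from edgeR = 0.13). PFKFB4 had 20.2, 6.68 and 10.8 CPM with leptin and 16.1, 19.4 and 18.4 CPM in Control libraries. Leptin replicate 1 was the highest library for PFKFB4 and the other Leptin libraries the lowest. Its log2 fold change was -0.51 ± 0.32 over all libraries (edgeR adjusted p = 0.341) and -1.04 ± 0.19 without Leptin replicate 1 (edgeR adjusted p = 0.000696).

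**Figure D2:**
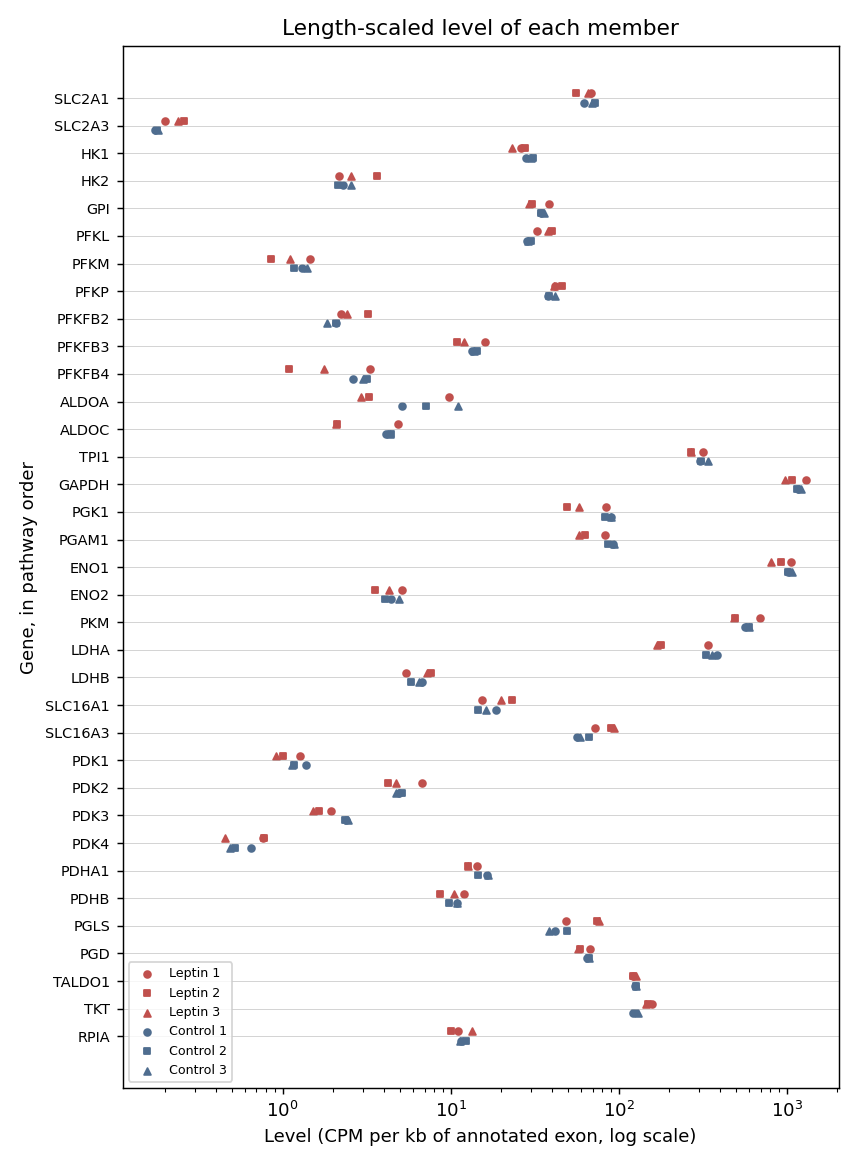
Level of each member per kb of annotated exon (CPM per kb, logarithmic axis), 1 point per library, Leptin in red above Control in blue, genes in pathway order. GAPDH and ENO1 lie highest, and SLC2A3 and PDK4 lowest, under 1 CPM per kb.

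The lower steps of glycolysis held the most abundant transcripts of the 35. Per kb, the level of GAPDH was 1119.8 ± 165 CPM with leptin and 1179 ± 27.3 CPM in Control libraries, that of ENO1 932 ± 128 CPM with leptin and 1034 ± 33.6 CPM in Control libraries, and that of PKM 558 ± 116 CPM with leptin and 586 ± 19.6 CPM in Control libraries (mean ± SD, n = 3 each). Below them came TPI1, at 285 ± 28.2 CPM per kb with leptin and 319 ± 20.01 CPM per kb in Control libraries, and LDHA, at 230.4 ± 96.99 CPM per kb with leptin and 358 ± 24.9 CPM per kb in Control libraries. ALDOA, the aldolase of muscle and most tumours, was counted at only 37.5, 12.5 and 11.2 CPM with leptin and 19.7, 27.4 and 42.1 CPM in Control libraries. Of its annotated exon bases 42.8% are shared with another gene ID on the same strand, and read pairs over both were not counted, so its level and its change (-0.54 ± 0.51 on the log2 scale, and -1.34 ± 0.29 without Leptin replicate 1) are uncertain. ALDOC, the brain aldolase, had 12.7, 5.55 and 5.46 CPM with leptin and 10.8, 11.6 and 11.4 CPM in Control libraries. Its log2 fold change was -0.50 ± 0.29 over all libraries (edgeR adjusted p = 0.284) and -1.04 ± 0.18 without Leptin replicate 1 (edgeR adjusted p = 0.000383).

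In the triose part, TPI1, which interconverts the triose phosphates, had 856, 723 and 725 CPM with leptin and 823, 839 and 923 CPM in Control libraries. GAPDH, a dehydrogenase often used as a reference gene, had 3121, 2576 and 2352 CPM with leptin and 2804, 2773 and 2898 CPM in Control libraries (log2 fold change -0.07 ± 0.14; adjusted p from edgeR = 0.765). Leptin replicate 1 lay above all Controls for GAPDH and the other Leptin libraries below. GAPDH shares 17.6% of its exon bases with another gene ID on the opposite strand. PGK1, which makes the first ATP of glycolysis, had 459, 268 and 315 CPM with leptin and 489, 451 and 489 CPM in Control libraries. The first Leptin library lay within the Controls and the others far below. Its difference of -0.46 ± 0.17 on the log2 scale did not pass (edgeR adjusted p = 0.119), and that without Leptin replicate 1, -0.72 ± 0.10, did (edgeR adjusted p = 8.95e-05).

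PGAM1, the phosphoglycerate mutase, had 209.6, 159.7 and 149 CPM with leptin, below all Control values of 236, 219 and 239 CPM. Its log2 fold change of -0.42 ± 0.14 missed the threshold in edgeR (adjusted p = 0.0732) and passed it in DESeq2 (adjusted p = 0.0379). ENO1, the common enolase, had 5549, 4820 and 4219.8 CPM with leptin and 5288, 5301 and 5598 CPM in Control libraries. The neuronal enolase ENO2 had 15.2 to 22.1 CPM with leptin and 17.5 to 21.2 CPM in Control libraries. PKM, whose splice forms these counts do not separate, had 5924, 4239.6 and 4176 CPM with leptin and 4832, 5146 and 5094 CPM in Control libraries. As for GAPDH, Leptin replicate 1 lay above all Controls for PKM and the other Leptin libraries below.

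At the fork after pyruvate, LDHA had its lowest values in Leptin replicates 2 and 3, and the carrier SLC16A3 its highest. LDHA, the subunit that favours lactate formation, lies on chromosome 11 (18394560 to 18408425, plus strand) of hg38. It had 2062, 1078 and 1024 CPM with leptin and 2308, 2009 and 2162 CPM in Control libraries. Leptin replicate 1 lay within the Controls and the other Leptin libraries far below them. Over all libraries the log2 fold change of -0.64 ± 0.24 did not pass edgeR (adjusted p = 0.11), passed DESeq2 (adjusted p = 0.0326), and was -1.05 ± 0.11 without Leptin replicate 1 (edgeR adjusted p = 3.74e-06). LDHB, the subunit of oxidative tissues, had 16.3, 22.7 and 21.5 CPM with leptin and 20.2, 17.4 and 19.4 CPM in Control libraries. Of its exon bases 33.4% are shared with another gene ID on the same strand, which makes its level uncertain.

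SLC16A3 (MCT4), known for lactate export, lies on chromosome 17 (82217934 to 82261129, plus strand). It rose to 668, 828 and 862 CPM with leptin, against 519.7, 614 and 543 CPM in Control libraries, and the groups did not overlap. SLC16A3 differed by 0.49 ± 0.13 on the log2 scale (edgeR adjusted p = 0.0418), and 0.59 ± 0.10 without Leptin replicate 1 (edgeR adjusted p = 0.00038). Removing the GC trend gave 0.17 (edgeR adjusted p = 0.375), and the transcript has 62.6% GC. Of its exon bases 5.22% are shared with CSNK1D on the opposite strand. SLC16A1 (MCT1), which carries lactate in or out, had 97.8, 147 and 127 CPM with leptin and 118, 92.6 and 103 CPM in Control libraries (log2 fold change 0.24 ± 0.15; adjusted p from edgeR = 0.33).

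Pyruvate entry into the citric acid cycle is held back by the pyruvate dehydrogenase kinases, which phosphorylate the E1 alpha subunit PDHA1. PDK3, on chromosome X (24465244 to 24550466, plus strand), fell to 34.1, 28.9 and 26.7 CPM with leptin, against 41.9, 41.3 and 42.9 CPM in Control libraries. All Leptin values lay below all Control values, and the log2 fold change was -0.49 ± 0.12 (edgeR adjusted p = 0.0293). It was -0.61 ± 0.11 without Leptin replicate 1 (edgeR adjusted p = 0.000648) and -0.38 with the GC trend removed (edgeR adjusted p = 0.075). PDK2, a broadly expressed kinase, was the highest of the kinases per kb, with 37.1, 23.3 and 25.8 CPM with leptin and 26.9, 27.95 and 25.99 CPM in Control libraries. Leptin replicate 1 lay above and the others below every Control, and 38.6% of its exon bases are shared with SAMD14 on the opposite strand, which makes this level uncertain. PDK1, known as a kinase induced by hypoxia, had 13.5 to 18.97 CPM with leptin and 16.9 to 20.6 CPM in Control libraries. PDK4, induced by fasting in many tissues, had 2.08 to 3.54 CPM with leptin and 2.22 to 2.95 CPM in Control libraries. PDHA1 had 71.3, 62.9 and 63.2 CPM with leptin, below all Control values of 81.3, 72.4 and 83.1 CPM (log2 fold change -0.26 ± 0.11; adjusted p from edgeR = 0.145). PDHB, its beta partner, had 40.6 to 56.7 CPM with leptin and 46.4 to 51.7 CPM in Control libraries.

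In the pentose phosphate pathway, PGLS, which opens the lactone made by the first dehydrogenase, rose. It lies on chromosome 19 (17511636 to 17521288, plus strand) and had 137, 212 and 218 CPM with leptin, against 118, 140.1 and 109 CPM in Control libraries. Leptin replicate 1 lay just under the highest Control, and the other Leptin libraries above all of them. PGLS differed by 0.63 ± 0.17 on the log2 scale (edgeR adjusted p = 0.0436) and by 0.81 ± 0.11 without Leptin replicate 1 (edgeR adjusted p = 3.72e-05). It missed the threshold in limma-voom over all libraries (adjusted p = 0.0566). Removing the GC trend gave 0.34 (edgeR adjusted p = 0.184), and the transcript has 61.6% GC. PGLS shares 8.94% of its exon bases with PGLS-DT on the opposite strand. PGD, the next enzyme and a source of NADPH, had 226, 195 and 190.03 CPM with leptin and 217, 223 and 222 CPM in Control libraries, with a log2 fold change of -0.12 ± 0.11. TKT, the transketolase that links pentoses back to glycolysis, had 1505, 1429 and 1382 CPM with leptin, above all Control values of 1152, 1195 and 1234 CPM. Leptin replicate 1 was here the highest library. This log2 fold change of 0.27 ± 0.11 did not pass (edgeR adjusted p = 0.15). TALDO1, the transaldolase, varied little, with 355, 352 and 369 CPM with leptin and 366, 367 and 370.2 CPM in Control libraries. RPIA, which makes ribose phosphate, had 18.2 to 24.2 CPM with leptin and 20.7 to 22.5 CPM in Control libraries.

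**Figure D3:**
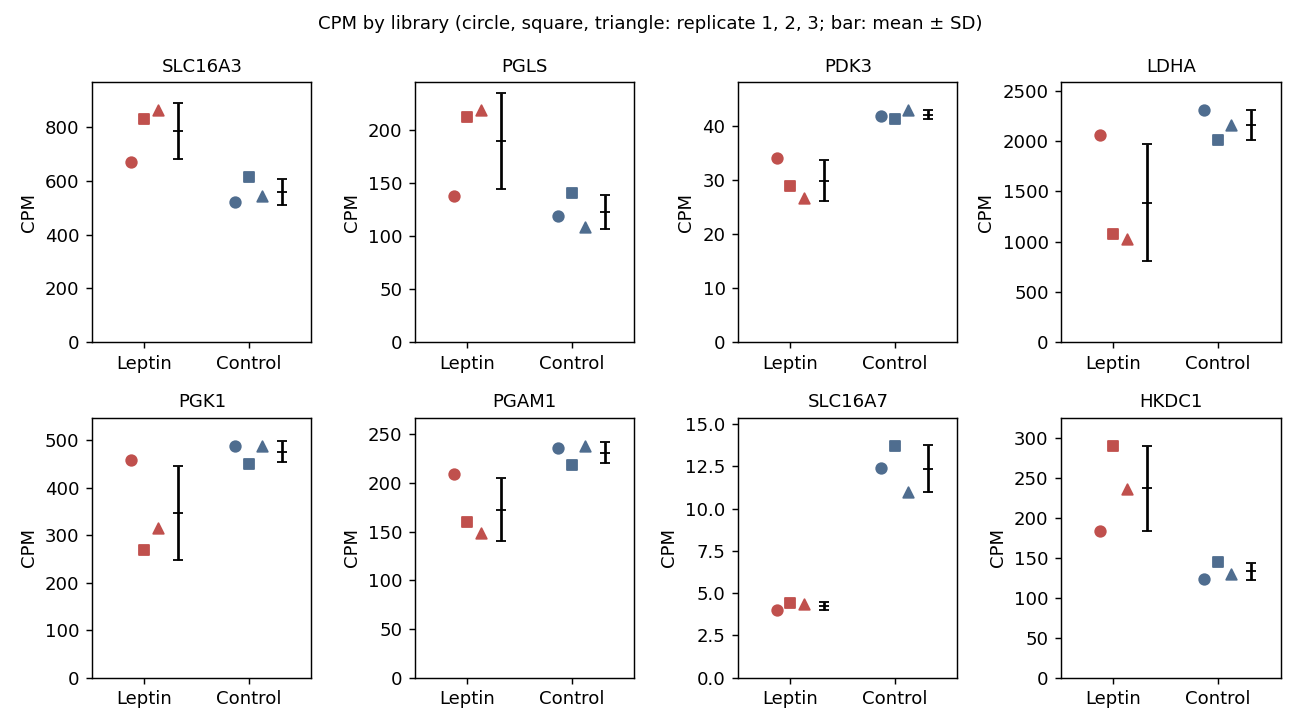
CPM of 6 members and of SLC16A7 and HKDC1 in each library (circle, square and triangle are replicates 1, 2 and 3; bars are mean ± SD, n = 3 each), Leptin in red left of Control in blue, axes from 0. SLC16A3, PDK3, PGAM1, SLC16A7 and HKDC1 have groups that do not overlap, while Leptin replicate 1 lies among the Controls for LDHA, PGK1 and PGLS.

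The sequence around the gene start is shown for the 3 genes that passed and for LDHA and PGK1. LDHA and PGK1 were picked from the abundant members in which Leptin replicate 1 lay among the Controls. ENO1, TPI1, SLC2A1 and PFKP are such members too, and their windows are not printed. Each window runs from 250 bases before to 50 after a gene start of RefSeq (GRCh38.p14, plus strand for all 5), 5′ to 3′. Capitals mark the letters ACGTG on either strand, core letters bound by hypoxia-inducible factors; CACGTG, the E-box of MYC, holds them on both strands and counts as 2 matches. LDHA has 2 windows and SLC16A3 has 5, and the one with most matches is printed. The windows are SLC16A3 at chr17:82228792-82229091, PGLS at chr19:17511399-17511698, PDK3 at chrX:24465036-24465335, LDHA at chr11:18394313-18394612 and PGK1 at chrX:78103998-78104297.
SLC16A3: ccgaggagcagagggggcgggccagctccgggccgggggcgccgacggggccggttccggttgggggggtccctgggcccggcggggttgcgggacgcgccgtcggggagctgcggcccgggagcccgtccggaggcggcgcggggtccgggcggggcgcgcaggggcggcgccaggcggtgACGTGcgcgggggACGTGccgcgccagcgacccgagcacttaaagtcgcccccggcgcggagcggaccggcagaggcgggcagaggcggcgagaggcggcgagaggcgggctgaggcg
PGLS: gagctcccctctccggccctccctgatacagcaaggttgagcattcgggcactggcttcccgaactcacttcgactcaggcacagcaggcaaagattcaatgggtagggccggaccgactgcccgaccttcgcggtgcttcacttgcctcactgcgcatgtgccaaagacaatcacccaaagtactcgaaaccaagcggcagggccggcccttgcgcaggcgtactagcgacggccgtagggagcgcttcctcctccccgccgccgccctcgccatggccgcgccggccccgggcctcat
PDK3: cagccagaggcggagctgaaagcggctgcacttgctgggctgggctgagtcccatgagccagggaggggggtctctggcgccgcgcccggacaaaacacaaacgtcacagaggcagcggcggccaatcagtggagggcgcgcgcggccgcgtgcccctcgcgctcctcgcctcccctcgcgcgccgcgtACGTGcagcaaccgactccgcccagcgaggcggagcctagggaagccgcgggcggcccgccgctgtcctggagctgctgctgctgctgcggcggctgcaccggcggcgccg
LDHA: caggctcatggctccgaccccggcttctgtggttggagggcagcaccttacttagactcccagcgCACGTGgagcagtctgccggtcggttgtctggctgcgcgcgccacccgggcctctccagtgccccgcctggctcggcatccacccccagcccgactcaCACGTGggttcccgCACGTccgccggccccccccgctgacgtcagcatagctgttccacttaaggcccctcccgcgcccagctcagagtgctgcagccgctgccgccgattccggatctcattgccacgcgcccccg
PGK1: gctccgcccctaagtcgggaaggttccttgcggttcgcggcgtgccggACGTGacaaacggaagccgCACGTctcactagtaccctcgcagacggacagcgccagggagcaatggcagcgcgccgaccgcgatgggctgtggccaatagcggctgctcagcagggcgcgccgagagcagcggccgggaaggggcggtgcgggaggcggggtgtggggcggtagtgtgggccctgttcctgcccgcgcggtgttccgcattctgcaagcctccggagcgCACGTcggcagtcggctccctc
The LDHA window held 5 matches, with 2 copies of CACGTG, the PGK1 window 3, the SLC16A3 window 2, the PDK3 window 1 and the PGLS window 0. Of the abundant members not printed, ENO1 and SLC2A1 had 0 matches, and TPI1 and PFKP at most 1 in a window. Of the 35 members 32 had a window in the table, all but SLC2A3, PFKFB2 and SLC16A1, and 18 of these, 56.2%, held the letters in at least 1 window, as did 24.9% of the 27305 genes in the table. A gene with more windows has more places for a match, and the 32 members had more windows per gene, so the shares by gene are not like for like. By window, 36.7% of the 60 member windows and 21.4% of all 35116 windows held them. The SLC16A3 window has 82.7% GC and the other 4 printed windows 65.3% to 74.3%. A match describes the letters and not binding.

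Other genes of the same pathways came from a list of 71, of which 47 passed the filter. Of the 47, 4 rose and 2 fell, or 12.8%, beside the 9.81% of all tested genes. SLC16A7 (MCT2), a carrier of high affinity for pyruvate and lactate, fell to 3.98, 4.41 and 4.33 CPM with leptin, against 12.4, 13.7 and 10.98 CPM in Control libraries. All Leptin libraries lay together and far below the Controls, and the log2 fold change was -1.54 ± 0.17 (edgeR adjusted p = 0.00162). It passed in all 6 leave-outs of 1 library, with log2 fold changes of -1.62 to -1.46, and with the GC trend removed (edgeR adjusted p = 0.00363). HKDC1, a hexokinase domain protein encoded next to HK1, rose to 184, 291 and 236 CPM with leptin, against 124, 145 and 130.2 CPM in Control libraries. The change was 0.83 ± 0.16 on the log2 scale (edgeR adjusted p = 0.0115) and 0.80 with the GC trend removed (edgeR adjusted p = 0.0191), and it passed in 3 of 6 leave-outs. Per kb the level of HKDC1 was 56.1 ± 12.6 CPM with leptin and 31.5 ± 2.63 CPM in Control libraries (mean ± SD, n = 3 each), against the HK1 levels given above.

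PCK2, which makes phosphoenolpyruvate in mitochondria, rose to 66.8, 102 and 94.8 CPM with leptin, against 47.03, 52.6 and 49.3 CPM in Control libraries (log2 fold change 0.83 ± 0.15; adjusted p from edgeR = 0.0102). PYGB, the brain glycogen phosphorylase, rose to 978, 1334 and 1080 CPM with leptin, against 727, 819.97 and 777 CPM in Control libraries (log2 fold change 0.55 ± 0.14; adjusted p from edgeR = 0.0334). H6PD, a hexose phosphate dehydrogenase of the endoplasmic reticulum, rose to 131, 149 and 126 CPM with leptin, against 99.1, 111 and 98.1 CPM in Control libraries (log2 fold change 0.40 ± 0.11; adjusted p from edgeR = 0.0459). The groups did not overlap for any of these genes. DERA, an aldolase of deoxyribose phosphate, fell to 12.1, 14.4 and 11.04 CPM with leptin, against 18.2, 19.3 and 16.9 CPM in Control libraries (log2 fold change -0.54 ± 0.15; adjusted p from edgeR = 0.0441). PCK2 passed in 3 of 6 leave-outs, DERA in 2, and PYGB and H6PD in 1, that of Leptin replicate 1. With the GC trend removed PCK2 passed (edgeR adjusted p = 0.0366), while PYGB, H6PD and DERA did not (edgeR adjusted p = 0.123, 0.144 and 0.0885). Without Leptin replicate 1, 17 of the 47 passed, 8 higher and 9 lower, or 36.2%, beside the 30.2% of all tested genes in that fit.

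Of 14 genes that regulate these pathways, 13 passed the filter and 2 rose, or 15.4%, beside the 9.81% of all tested genes. EPAS1, which encodes the hypoxia factor HIF-2 alpha, rose to 174, 454 and 340.3 CPM with leptin, against 138, 151 and 141 CPM in Control libraries (log2 fold change 1.17 ± 0.29; adjusted p from edgeR = 0.0403). TXNIP, which restrains glucose uptake and is induced by glucose, rose to 163, 302 and 317 CPM with leptin, against 129, 133 and 91.8 CPM in Control libraries (log2 fold change 1.14 ± 0.24; adjusted p from edgeR = 0.0204). Leptin replicate 1 was the lowest Leptin library for both and still above every Control. Each passed in 1 of 6 leave-outs, that of Leptin replicate 1. Once the GC trend was removed, TXNIP passed (edgeR adjusted p = 0.0263) and EPAS1 did not (edgeR adjusted p = 0.0703).

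**Figure D4:**
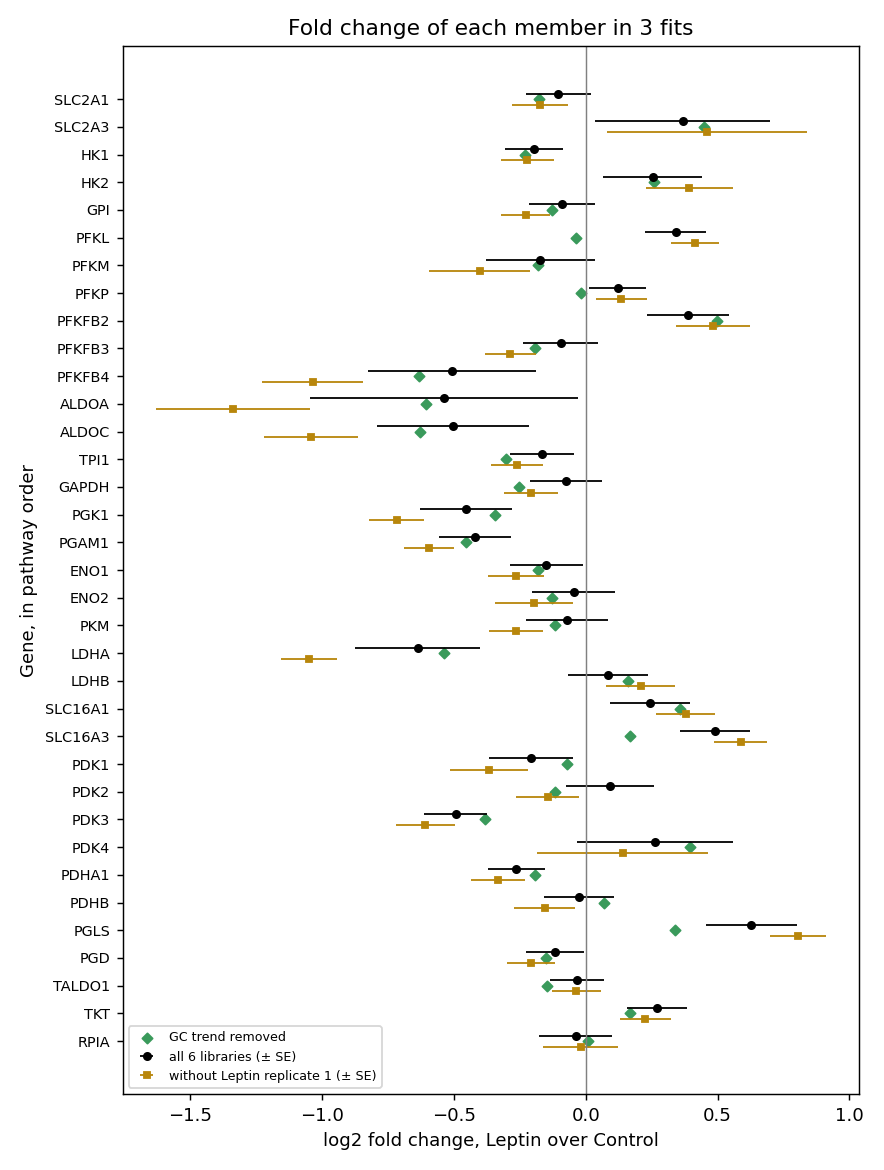
Log2 fold change of each member, Leptin over Control, in 3 fits: all 6 libraries (black, ± SE), the GC trend removed (green) and without Leptin replicate 1 (brown, ± SE), genes in pathway order. LDHA, ALDOC and PFKFB4 lie at -1.05 to -1.04 without Leptin replicate 1, and PFKL, at 0.34 over all libraries, lies at -0.04 with the GC trend removed.

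Ratios between genes of 1 step, and that of PGD to TKT across the pentose phosphate pathway, were taken within a library and per kb of exon. They do not depend on library scaling. Over 15 such pairs, 5 had groups that did not overlap (exact two-sided permutation p = 0.1 each, the smallest that 3 libraries against 3 allow, adjusted p = 0.273). Of all tested genes, taken singly, the groups did not overlap for 32.2%, and no such share was taken over ratios of other genes. In the pentose phosphate pathway, the log2 ratio of PGD to TKT was -1.22, -1.36 and -1.35 in Leptin libraries and -0.90, -0.91 and -0.96 in Control libraries. The log2 ratio of TALDO1 to TKT was -0.37, -0.31 and -0.19 in Leptin libraries and 0.05, 0.00 and -0.03 in Control libraries. Leptin replicate 1 lay with the other Leptin libraries in both ratios. Both are taken over TKT and are not independent: TKT alone differed by 0.27 on the log2 scale, PGD by -0.12 and TALDO1 by -0.03. Among the kinases, the log2 ratio of PDK3 to PDK2 was -1.80, -1.36 and -1.62 in Leptin libraries, against -1.04, -1.11 and -0.95 in Control libraries. The difference of its means was -0.56, and -0.24 with the GC trend removed. This ratio is uncertain, as 38.6% of the exon bases of PDK2 are shared with SAMD14. PDK2 was highest in Leptin replicate 1, the library with the lowest ratio. The mean log2 ratios of SLC2A1 to SLC2A3 and of PDHA1 to PDHB differed by -0.47 and -0.22 between Leptin and Control libraries, each lower in every Leptin library. For PDHA1 to PDHB the groups were barely apart, at 0.562 in Leptin replicate 2 against 0.572 in Control replicate 2. PDHA1 also shares 19.3% of its exon bases with MAP3K15 on the opposite strand. The ratio of SLC2A1 to SLC2A3 rested on few reads, as SLC2A3 had 25 to 29 counts with leptin and 21 to 24 in Control libraries. For LDHA to LDHB the log2 ratio was 5.97, 4.55 and 4.56 in Leptin libraries and 5.82, 5.84 and 5.79 in Control libraries, so that Leptin replicate 1 lay above the Controls and the others more than 1 below (exact two-sided permutation p = 0.4).

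**Figure D5:**
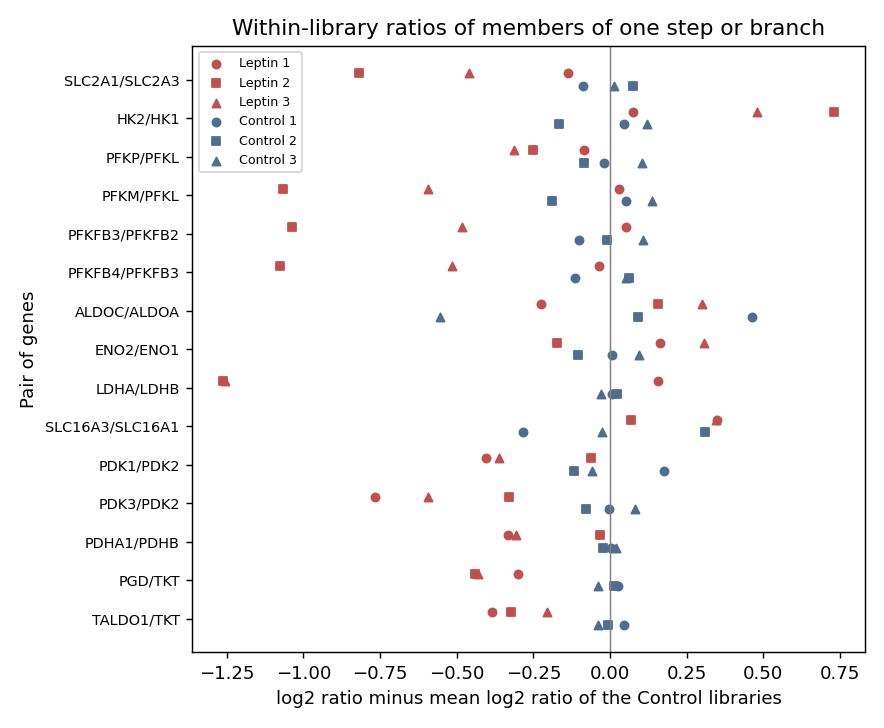
Log2 ratio of 2 genes per kb within each library, minus the mean of that ratio in the Control libraries, for 15 pairs (rows), Leptin in red above Control in blue. All 3 Leptin libraries lie left of the Controls for SLC2A1/SLC2A3, PDK3/PDK2, PDHA1/PDHB, PGD/TKT and TALDO1/TKT, and 2 of them lie more than 1 to the left for LDHA/LDHB.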

How the data were processed

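Counts per gene were analysed for 3 Leptin and 3 Control libraries of OVCAR8 cells. The deposited values are raw counts of paired reads on the exons of GENCODE release 44 genes, made by the authors with featureCounts 2.0.1, per the file headers. The recorded command sets no option for strand, multi-mapping reads or reads on several genes, so such reads were left out and strand was ignored. Per the submitters' processing notes, HISAT2 2.0.5, featureCounts 1.5.0-p3, DESeq2 and hg38 were used. Per the labels' protocols the kit was directional. Counting this way loses pairs over overlapping genes and near-identical copies. All 62700 gene IDs matched a symbol, and 0 columns of per-sample values were left aside.

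The fit used edgeR 4.0.16 in R 4.3.3: filterByExpr (minimum count 10, minimum total 15), TMM, robust quasi-likelihood test, Benjamini-Hochberg adjustment over all 15685 tested genes, threshold 0.05. CPM used TMM-scaled totals of tested genes, and SE is the log2 fold change over the root of F. Length is that of annotated exons. The GC trend (GENCODE release 29, longest transcript, known for 97.2% of tested genes) was removed by lowess (span 0.3) as offsets, with TMM repeated. Other alternatives were DESeq2 1.42.0, limma-voom (limma 3.58.1), 2 scalings, no filter, a replicate block and leave-outs. Same-group libraries differed by more than sampling noise, Leptin libraries more than Control ones. The mean chi-square per gene was 5.30 to 5.61 for Control pairs and 19.6 to 45.7 for Leptin pairs, with 19.6 for Leptin replicates 2 and 3. The fits were tested on simulated data. Values in every library are given for members past the threshold, with no overlap or highest per kb in a step, and for others where they help to follow a step; other pathway genes and regulators are named where past the threshold. Members and lists were chosen with earlier results of these data known. Figures used matplotlib 3.10.9.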

Additional observations from a re-analysis of the deposited data

How the results depend on the processing

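Counts of genes past the threshold moved most with the library left out. Without 1 library, 113 to 4741 all tested genes, 0 to 14 members and 1 to 17 other pathway genes passed, each time the most without Leptin replicate 1. With the GC trend removed, 866 genes passed, and with 1 library also left out, 47, 87, 57, 4017, 421 and 76 without Control replicates 1 to 3 and Leptin replicates 1 to 3, in that order. With the GC trend removed, 0 members passed, and with 1 library also left out, 0, 0, 0, 14, 0 and 0 without the same libraries. With the GC trend removed, 3 other pathway genes passed, and with 1 library also left out, 1, 1, 1, 13, 2 and 1 without the same libraries. Without the filter 2437 genes, 6 members and 10 other pathway genes passed. By DESeq2 6 members and 10 other pathway genes passed, and at an adjusted p under 0.01 274 genes, 0 members and 1 other pathway gene. The cause of these shifts was not tested. The replicate block gave 1303 genes, 3 members and 5 other pathway genes. Deviations of same-numbered libraries from their group means had correlations of -0.0489, 0.0147 and -0.109. With 3 libraries in a group and Leptin replicate 1 apart, these cannot show whether same-numbered libraries share more than a number. Under the block LDHA passed and SLC16A3 did not (edgeR adjusted p = 0.0411 and 0.055).

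The fits with the GC trend removed were 1 with all libraries and 6 with a library left out. Signs turned only for members that did not pass over all libraries. PFKL, at 0.34 over all libraries, had log2 fold changes of -0.0357, -0.0325, -0.0443, -0.0274, -0.0389 and -0.0616 in 6 of 7 fits with the GC trend removed and 0.0125 in the other 1. PFKP, at 0.12 over all libraries, had log2 fold changes of -0.0195, -0.025, -0.0519 and -0.0735 in 4 of 7 fits with the GC trend removed and 0.0201, 0.00824 and 0.0238 in the other 3. PFKFB3, at -0.10 over all libraries, had log2 fold changes of -0.29 to 0.012 in leave-outs. GAPDH, at -0.07 over all libraries, had log2 fold changes of -0.21 to 0.00702 in leave-outs. ENO2, at -0.05 over all libraries, had log2 fold changes of -0.20 to 0.0775 in leave-outs. PKM, at -0.07 over all libraries, had log2 fold changes of -0.26 to 0.0122 in leave-outs. LDHB, at 0.08 over all libraries, had log2 fold changes of -0.0129 to 0.21 in leave-outs. PDK1, at -0.21 over all libraries, had log2 fold changes of 0.00338 and 0.0214 in 2 of 7 fits with the GC trend removed and -0.0727, -0.10, -0.12, -0.22 and -0.0153 in the other 5, among them that with all libraries. PDK2, at 0.09 over all libraries, had log2 fold changes of -0.12, -0.10, -0.11, -0.14, -0.37 and -0.0128 in 6 of 7 fits with the GC trend removed and 0.0269 in the other 1, and -0.14 to 0.22 in leave-outs. PDHB, at -0.03 over all libraries, had log2 fold changes of 0.071, 0.0817, 0.0307, 0.10, 0.20 and 0.056 in 6 of 7 fits with the GC trend removed and -0.0396 in the other 1, and -0.16 to 0.088 in leave-outs. RPIA, at -0.04 over all libraries, had log2 fold changes of 0.00886, 0.0486, 0.0498 and 0.11 in 4 of 7 fits with the GC trend removed and -0.00724, -0.0149 and -0.12 in the other 3, and -0.17 to 0.0478 in leave-outs. Among these, PDK2 passed with both the GC trend and Leptin replicate 1 removed (edgeR adjusted p = 0.026).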
